A study of Mus musculus with 4 samples.

Results

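The Period genes Per1, Per2 and Per3 and the cryptochrome genes Cry1 and Cry2 encode the repressors of the circadian clock, and acetylation of histone H4 on lysine 16 (H4K16ac) at these 5 loci was compared in liver of a Sirt1-deficient (MT) and a wild-type (WT) mouse. An island is a stretch of the genome where reads from the H4K16ac immunoprecipitation (ChIP) exceeded those from the input, which is chromatin sequenced without immunoprecipitation. The members are the islands of the deposited lists that overlap 1 of 5 fixed windows, of 70 to 110 kb, given for these genes. The windows were stated in a later genome build than the mm8 that the submitters name, and were applied to the lists without conversion. The members came to 43 islands of 54604, with 18 of 28377 in MT and 25 of 26227 in WT. Islands were taken by position only and by no measured value, but the genes were chosen with earlier results of these data known.

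Each genotype is represented by 1 mouse of 3 months with 1 ChIP and 1 input library, on a mixed 129/FVB/Black Swiss background, kept in a 12-h light environment and killed in the morning. The MT mouse carried the SIRT1 KO in all tissues, in a line in which most homozygous embryos die before birth by the study's account, and the WT mouse carried the intact gene. Whole liver was used, so the cells that gave the signal cannot be told apart, and neither can the genotype and the individual mouse. No test between genotypes was possible, no p-value is given for any difference, and every 95% interval covers counting error only. The depth of each library was compared through the input reads of regions that both lists hold, by which MT exceeded WT in depth by a factor of 1.05 for ChIP and of 1.09 for the input. All islands of the MT list summed to 2916128 ChIP reads and those of the WT list to 2264125.

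The clock of most cells is a feedback loop. The activators CLOCK and BMAL1 bind E-boxes in the promoters of the Period and Cryptochrome genes, the PER and CRY proteins gather in the cytoplasm, enter the nucleus together and shut off the activators, and their breakdown lets the next cycle begin. H4K16ac loosens the packing of nucleosomes, and SIRT1 is a deacetylase that can remove it.

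The promoters are shown because the windows are meant to hold them and because the elements that the clock reads lie there. The sequences are those of RefSeq for GRCm38.p6, from 250 bases before to 50 bases after the start of the gene, and 4 of the 5 genes matched an entry. Per2 had none, so below its start is taken as the end of its RefSeq gene entry, with the minus strand assumed. Capitals mark an E-box (CACGTG), a related E'-box (CACGTT, which reads AACGTG on the other strand) or a D-box (TTATGTAA, bound by DBP, TEF and HLF), each searched on both strands. The E'-box was added after the sequences had been seen. Per1 has a pair of starts, at chr11:69098699-69098998 and chr11:69099902-69100201, both on the plus strand. Per3 lies at chr4:151044616-151044915, Cry1 at chr10:85185005-85185304 and Cry2 at chr2:92434020-92434319, all on the minus strand. Each is printed in the direction of its gene.
Per1, first promoter: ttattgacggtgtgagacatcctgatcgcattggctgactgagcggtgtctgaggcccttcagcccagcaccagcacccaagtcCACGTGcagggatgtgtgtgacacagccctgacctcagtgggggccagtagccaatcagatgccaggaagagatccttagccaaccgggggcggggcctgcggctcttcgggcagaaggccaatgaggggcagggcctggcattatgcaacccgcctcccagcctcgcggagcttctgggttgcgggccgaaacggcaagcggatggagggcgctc
Per1, second promoter: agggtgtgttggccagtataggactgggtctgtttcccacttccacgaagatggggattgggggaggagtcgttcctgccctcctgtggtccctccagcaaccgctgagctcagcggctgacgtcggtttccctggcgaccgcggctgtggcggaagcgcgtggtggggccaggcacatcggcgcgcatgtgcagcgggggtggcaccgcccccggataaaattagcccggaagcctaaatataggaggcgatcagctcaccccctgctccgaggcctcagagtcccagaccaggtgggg
Per3: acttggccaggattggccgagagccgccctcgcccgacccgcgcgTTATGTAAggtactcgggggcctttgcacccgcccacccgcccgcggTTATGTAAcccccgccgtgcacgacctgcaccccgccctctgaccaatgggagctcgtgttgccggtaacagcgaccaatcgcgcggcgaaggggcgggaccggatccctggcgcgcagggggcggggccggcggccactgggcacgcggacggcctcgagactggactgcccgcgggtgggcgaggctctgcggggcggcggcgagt
Cry1: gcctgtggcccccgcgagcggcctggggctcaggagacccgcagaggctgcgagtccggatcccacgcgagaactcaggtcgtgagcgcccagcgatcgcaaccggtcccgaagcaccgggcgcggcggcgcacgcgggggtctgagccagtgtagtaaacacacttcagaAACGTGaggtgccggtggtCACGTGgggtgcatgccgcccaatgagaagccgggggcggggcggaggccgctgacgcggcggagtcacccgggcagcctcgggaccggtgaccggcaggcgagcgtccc
Cry2: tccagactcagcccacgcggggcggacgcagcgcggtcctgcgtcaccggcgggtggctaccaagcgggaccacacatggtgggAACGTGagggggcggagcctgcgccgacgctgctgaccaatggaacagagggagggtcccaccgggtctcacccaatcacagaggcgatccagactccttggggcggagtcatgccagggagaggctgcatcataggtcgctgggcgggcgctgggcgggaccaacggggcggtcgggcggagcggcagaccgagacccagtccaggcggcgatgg

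The first Per1 promoter held an E-box whose first base was at -166 from the start, and the second Per1 promoter held none of the 3 elements. The Cry1 promoter held an E-box at -60 and an E'-box at -79. The Cry2 promoter held an E'-box at -166 and no E-box. The Per3 promoter held a D-box at -205 and another at -158. Over all 32851 promoters in the table, 7.15% held an E-box, 4.69% an E'-box and 0.938% a D-box. Of 20 promoters of 13 other clock genes, 4 held an E-box, 1 an E'-box and 0 a D-box. These matches describe the letters of the windows and show no binding, and no element overlapped another.

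Because these promoters are in another build than the lists, the place of each gene in the lists was estimated from the data. The submitters' processing notes name mm8, and the last islands of chromosome 2 (at 181860800 in MT and 181861600 in WT), chromosome 7 (145093800 and 144906000) and chromosome 13 (120593600 and 120581600) fit the chromosome lengths of that build. The RefSeq starts of other genes within 5 Mb of each member were moved together, in steps of 200 bp, to the offset at which most of them fell in islands of both lists. At the best offset 60 of 263 starts around Per1 lay in such islands, against 27 at the best offset more than 20 kb away and a median of 8. The counts were 37 of 186 for Per2 (18 elsewhere), 39 of 244 for Per3 (22), 39 of 242 for Cry1 (28) and 30 of 221 for Cry2 (19). Offsets that kept 90% of the best count spanned 0.2 kb for Per2 and Per3, 0.6 kb for Per1 and Cry1, and 1.2 kb for Cry2. The start of a gene given by this offset is called the matched start. It is an estimate of position and no conversion between builds, and the gene's own start was not used in it.

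By the matched starts, the windows do not cover the 5 genes alike. The Per1 window held the whole gene. The Cry1 window held 83.7% of the gene and the Cry2 window 48.9%, both with the start inside. The edge of the Per2 window lay 0.4 kb from the matched start, so that 0.809% of the gene was inside and the window mostly covered its upstream side, towards Traf3ip1 and Asb1. The Per3 window lay 461.9 kb away from the matched start of Per3. The windows were kept as they were given, and the islands from 10 kb before to 10 kb after each matched gene, called the gene span, are given beside them. This comparison was added after the data had been seen.

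In the 5 windows together, MT islands covered 68.0 kb with 2744 ChIP reads over 1193 input reads, and WT islands covered 64.0 kb with 2263 over 900. The 4 windows with islands differed in direction. The Cry2 window had more covered length in MT, 21.4 kb against 11.8 kb, and the Per1 window had 12.6 kb against 9.4 kb. The Per2 window had 25 kb against 18.8 kb, but the MT sum counts whole an island of 8400 bp that crosses the edge of the window, and its WT partner lies outside. Within the edges 20.2% of the Per2 window was covered in MT and 20.9% in WT, and the covered length in MT was 0.883 times that of WT with islands wholly inside and 0.981 times with the window widened by 20 kb, so the direction at Per2 rests on the edge. The Cry1 window had 9.0 kb in MT and 24.0 kb in WT. Of the tiles of 100 kb that held islands of both lists, 36.2% had at least 1.5 times the covered length in MT and 15.0% had at least 1.5 times in WT, so a larger covered length in MT was common in the genome and a larger one in WT was less so.

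**Figure D1:**
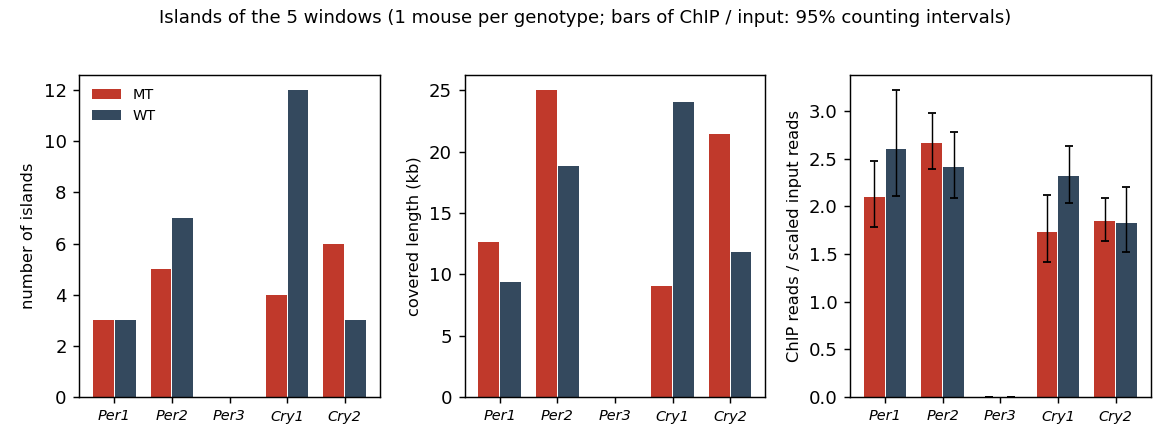
Number of islands, covered length in kb and ChIP over scaled input reads of the islands in each window, with MT in red and WT in dark blue. Error bars in the right panel are 95% counting intervals. Cry1 has the only bar pair with far more islands in WT (12 against 4), and the Per3 window has none in either list.

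The islands of both lists were merged where they overlapped, and the windows then held 29 regions, of which 13 had islands of both lists, 4 of MT only and 12 of WT only. Over the genome 40.4% of regions had islands of both lists, 33.9% of MT only and 25.7% of WT only. Of the 12 WT-only regions, 8 lay in the Cry1 window and 4 in the Per2 window. The level of a shared region was taken as scaled ChIP reads per covered kb, and 6 of the 13 were higher in MT and 7 lower, with a median log2 of MT over WT of -0.0067 against -0.011 over all 14719 shared regions. A change of at least 1.5-fold was found in 0 of the 13 towards MT and in 1 towards WT, beside 2.89% and 4.05% of shared regions in the genome. The counting interval left out 0 in 4 of the 13, beside 15.2% in the genome.

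**Figure D2:**
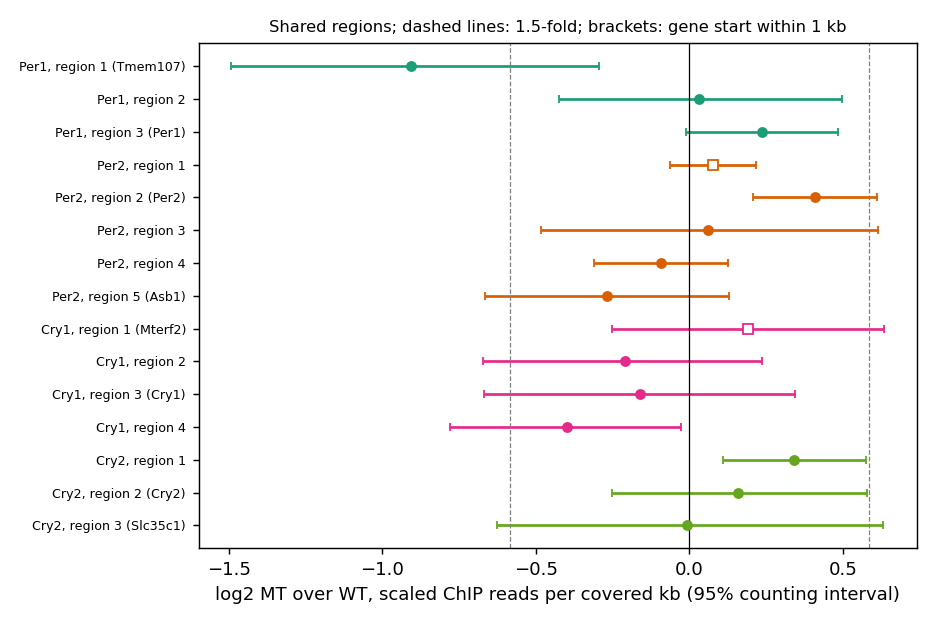
The log2 of MT over WT scaled ChIP reads per covered kb for each shared region (points) with 95% counting intervals (bars). Filled points lie in the windows and open squares only in the gene spans, and dashed lines mark 1.5-fold. The values run from -0.91, beside the start of Tmem107 in the Per1 window, to 0.41, in the region that holds the start of Per2.

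Per1, whose product is the PER protein most rapidly induced by light and hormones, had an island over its matched start with the same ends in both lists, on chromosome 11 from 68910401 to 68916600. In MT it held 303 ChIP reads and 134 input reads, against 246 and 82 in WT. ChIP over scaled input was 2.14 in MT (interval 1.74 to 2.64) and 2.73 in WT (2.12 to 3.55). Scaled ChIP reads per kb were 46.7 in MT and 39.7 in WT, a log2 change of 0.24 with an interval of -0.012 to 0.48. The input of the same stretch was higher in MT by 0.58 (0.18 to 1.0). The ChIP level and the input were thus both on the higher side in MT, while the ratio of the 2 was on the lower side. The part of the input in the ChIP difference was not tested.

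The other 2 Per1 regions lay upstream. The nearer one, with its near edge at -7.9 kb from the matched start in MT, held 95 ChIP reads in MT and 71 in WT and differed by 0.03 (-0.43 to 0.50). The farther one lay beside the matched start of Tmem107, a gene for a protein of the cilium, on chromosome 11 from 68886201 to 68889600. Its MT island was 3400 bp long with 83 ChIP reads, and its WT island 800 bp long with 35. The level per covered kb was therefore lower in MT, with a log2 of -0.91 (-1.49 to -0.29), while the reads of the whole region were higher in MT, with a log2 of 1.18, and the sign depends on the division by length. Over the window the log2 change was -0.038 (-0.24 to 0.16), and over the gene span, which leaves this region out, it was 0.17 (-0.051 to 0.38).

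At Per2, the repressor whose loss disturbs the rhythm of behaviour and of liver metabolism in mice, the islands of the lists had different ends at the start of the gene. The MT island there ran on chromosome 1 from 93283201 to 93291600, over the matched start, with 467 ChIP and 156 input reads. The WT island ran from 93279801 to 93288800, with 360 ChIP and 152 input reads, and ended 1.6 kb inside the gene. It did not reach the window and is no member. ChIP over scaled input was 2.83 in MT (2.36 to 3.42) and 2.15 in WT (1.78 to 2.62). The merged region had 53.1 scaled ChIP reads per covered kb in MT and 40 in WT, a log2 change of 0.41 (0.21 to 0.61). This was above 92.3% of the shared regions of the genome, and the input of the region differed by 0.013 (-0.32 to 0.34).

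Upstream of the Per2 start, from 93292201 to 93297000, the MT list held a further island with 230 ChIP and 82 input reads, a ratio of 2.66 (2.06 to 3.46) and an authors' false discovery rate (FDR) of 3.05e-36. Its near edge lay at -1.8 kb from the matched start, and it was separated from the island over the start by a single gap of 600 bp. The WT list had no island there, and the nearest WT island lay 3400 bp away. Were the level of both mice the same, about 220 WT reads would have been immunoprecipitated there, and a WT count of up to 113 would have failed the threshold of the list, if the input is taken as the same too. Of 12335 MT islands with no WT island at the place, 71 (0.576%) had as many ChIP reads. An expected count above the failing count is not rare in itself, since 98.6% of the MT islands without a WT island had one. The reads of the WT libraries at the place are not listed, so no fold can be given.

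In the body of Per2, outside the window, both lists held a long island. It had 897 ChIP reads over 16400 bp in MT and 728 over 14400 bp in WT, and began 12.4 kb and 12.6 kb past the matched start. With a small WT island beside it, the region differed by 0.08 (-0.064 to 0.22). Over the whole gene span 3 MT islands held 1594 ChIP reads and 3 WT islands held 1123, ChIP over scaled input was 2.85 (2.58 to 3.15) and 2.53 (2.25 to 2.84), and the log2 change per covered kb was 0.16 (0.050 to 0.27). The input of the span differed by -0.014 (-0.20 to 0.18). Of the parts of this gene, the region that holds the start differed beyond counting error, over islands with different ends. An island upstream was in the MT list alone, and the long island of the body was within counting error.

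Farther upstream of Per2 the lists were more alike or favoured WT. A region from 93357201 to 93364600 held 338 ChIP reads in MT and 354 in WT (log2 -0.093, -0.31 to 0.13), and was the shared region wholly inside the Per2 window with the most reads. The region beside the start of Asb1 held 125 and 96, with ratios of 4.23 and 4.59 that were the highest of the window (log2 -0.27, -0.67 to 0.13). Between them and Per2 lay 4 WT islands with no MT island at the place, 1 of them beside the start of Traf3ip1, with 41 to 71 ChIP reads and ratios of 1.57 to 2.25. The window as a whole had a log2 change of 0.29 (0.16 to 0.43), or -0.0081 with ChIP reads set to equal totals over all islands. Its MT sum counts whole the island over the start, while the WT partner lies outside the window. With islands wholly inside, the change was 0.19. It was 0.025 with islands in shared regions alone, a choice that leaves out the upstream MT island and the 4 WT islands without an MT island. That choice still counts the MT island over the start without its WT partner.

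**Figure D3:**
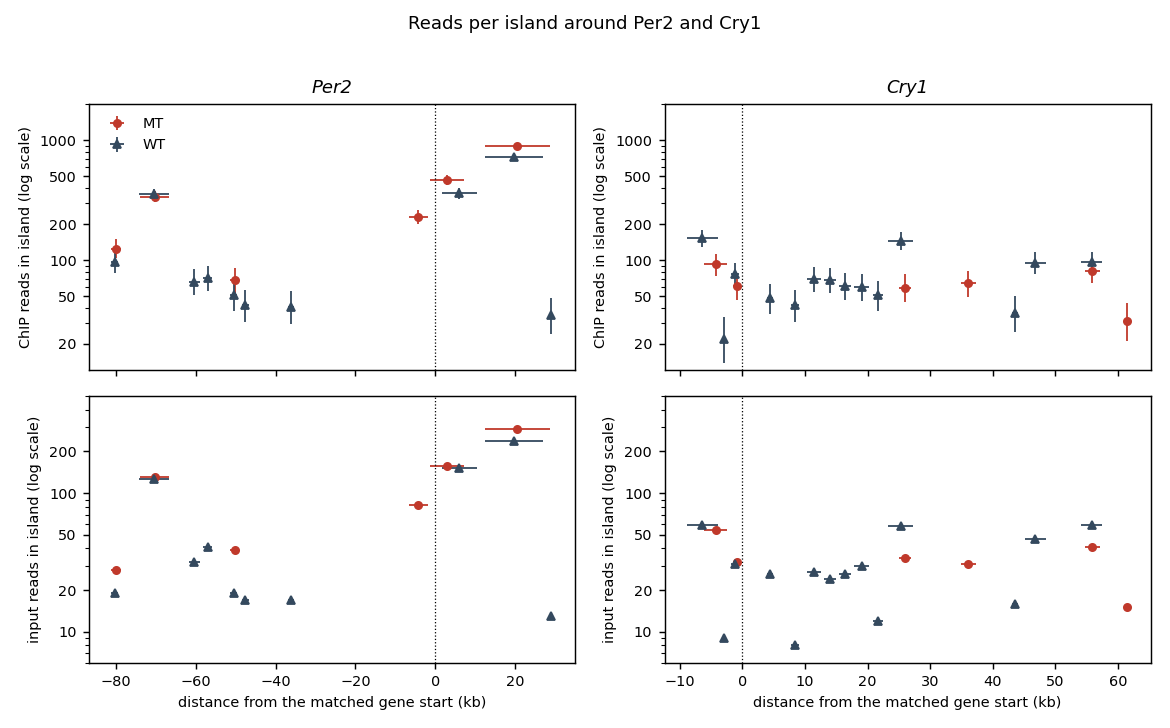
ChIP reads (upper panels) and input reads (lower panels) of each island, on log scales, against its distance in kb from the matched start of Per2 (left) and Cry1 (right), with positive distances inside the gene. Horizontal bars are the island lengths and vertical bars the 95% counting intervals of the ChIP reads, with MT as red circles and WT as dark triangles. The MT island of 230 reads before the Per2 start has no WT partner, and most WT islands inside Cry1 have no MT partner.

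The window of 100 kb given for Per3, the Period gene whose loss alters the clock least, had no island of either list. It lay 461.9 kb from the matched start of Per3. Over the genome 62.9% of tiles of this size held none. The span of the gene by the matched start held 1 island of each list, and these did not overlap. The MT island lay over the matched start, on chromosome 4 from 149887401 to 149889600, with 86 ChIP and 26 input reads and a ratio of 3.13 (2.0 to 5.06). The WT island lay 6.3 kb inside the gene, from 149877401 to 149881800, with 142 ChIP and 71 input reads and a ratio of 1.82 (1.36 to 2.45). Each had 5600 bp to the nearest island of the other list. The same level in both mice would give 82 WT reads at the start, where up to 44 would fail, and 149 MT reads inside the gene, where up to 112 would fail. Such a margin sets neither place apart. It was found for 98.6% of all MT islands without a WT island and for all 9364 WT islands without an MT island.

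Cry1, which encodes a strong repressor of CLOCK and BMAL1, had the largest number of member islands. The Cry1 window held 12 WT islands with 830 ChIP reads over 326 input reads, and 4 MT islands with 276 over 151. ChIP over scaled input was 2.31 in WT (2.03 to 2.64) and 1.73 in MT (1.41 to 2.12). Of 7557 tiles of 100 kb with islands of both lists, 5 (0.0662%) had an excess of WT islands as large as the 8 of this window of 110 kb, and 322 (4.26%) had a WT covered length of at least 2.67 times that of MT, as here. The excess in number was thus rarer among tiles than the excess in covered length. The number also depends on how the caller split the stretch. Neighbouring WT islands from 84592201 to 84604400 on chromosome 10 lay 600 bp apart, where gaps of at most 400 bp were joined.

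Most of the WT islands lay in the body of the gene. Past the start, WT had 9 islands from 3.9 kb to 43.1 kb inside the gene, with 36 to 145 ChIP reads each and 580 in all, and 8 of these had no MT island at the place. MT had 2 islands, 25.1 kb and 34.9 kb inside the gene, with 59 and 64 ChIP reads. Of the 8 WT islands, that with the lowest FDR (1.49e-15) held 42 ChIP and 8 input reads 7.7 kb past the matched start, a ratio of 4.77 (2.21 to 11.8). The one with the next lowest FDR (6.30e-15) held 51 ChIP and 12 input reads at 20.9 kb, a ratio of 3.86 (2.03 to 7.96). The same level in both mice would give 44 and 53 MT reads at these places, where up to 20 and 26 would fail. For the other 6 the expected counts ran closer to the failing ones, down to 50 against 48. All 9364 WT islands without an MT island had an expected count above the failing one, so this holds for such islands in general.

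The islands at the start of Cry1 and before it were found in both lists. The region beside the matched start, from 84615001 to 84616600 on chromosome 10, held 61 ChIP reads in MT and 76 in WT, and 48.6 and 54.3 scaled reads per covered kb (log2 -0.16, -0.67 to 0.34). The region upstream of it, to 84623600, held 92 ChIP reads over 3600 bp in MT and 174 over 5400 bp in WT (log2 -0.40, -0.78 to -0.027). The region in the body that both lists share held 59 and 145 (log2 -0.21, -0.67 to 0.24). All 3 shared regions of the window were thus lower in MT, and the interval left out 0 in the upstream one. Over the window the log2 change per covered kb was -0.24 (-0.44 to -0.041), and that of reads not divided by length was -1.65 (-1.86 to -1.46), while the input per covered kb differed by 0.18 (-0.11 to 0.46). These values sum the reads of listed islands only. MT reads at the 8 WT islands without an MT island are not listed, so -1.65 is no fold over the same stretches. Over the gene span, with 6 MT and 14 WT islands, the log2 change per covered kb was -0.10 (-0.27 to 0.069), as it was with the window widened by 20 kb. The interval then included 0, and the MT covered length was 0.390 times that of WT, against 0.375 in the window.

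Cry2, the paralogue of Cry1 that represses the same activators, had 6 islands in MT with 759 ChIP and 389 input reads, and 3 in WT with 360 ChIP and 179 input reads. ChIP over scaled input was 1.85 in MT (1.63 to 2.09) and 1.83 in WT (1.52 to 2.20), so more islands covered more of the window in MT at a similar ratio, while the longest island was that of WT, with 8600 bp against 6600 bp. The region at the matched start, from 92231401 to 92235400 on chromosome 2, held 155 ChIP and 70 input reads over 4000 bp in MT, against 73 and 38 over 2200 bp in WT, with a log2 change per covered kb of 0.16 (-0.25 to 0.58). The region inside the gene, from 92220001 to 92230600, held 387 ChIP reads in MT and 251 in WT (log2 0.34, 0.11 to 0.58), and its input was higher in MT by 0.32 (-0.0045 to 0.65). The part of the input in that difference was not tested.

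The other Cry2 regions held fewer reads. The region at the start of Slc35c1, a GDP-fucose transporter gene, held 60 ChIP reads in MT and 36 in WT (log2 -0.0067, -0.63 to 0.63), with the highest ratios of the window in both lists, 2.47 and 3.27. MT alone had an island of 63 ChIP reads at -7.5 kb from the Cry2 start and one of 94 at -21.1 kb, with ratios of 1.57 and 1.75. Of these, the one at -21.1 kb had the lower FDR (8.89e-07) and lay 1200 bp from a WT island. The same level in both mice would give 60 and 90 WT reads, where up to 59 and 76 would fail, so the first of them was at the limit that this depth can show. An expected count above the failing one was found for 98.6% of all MT islands without a WT island. Over the window the log2 change was 0.15 (-0.031 to 0.34), and -0.15 with equal totals over all islands. Over the gene span, with 4 MT and 2 WT islands, it was 0.22 (0.018 to 0.41), and the interval then left out 0. The MT sums of the window and the span include the island at -7.5 kb, where WT reads are not listed.

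**Figure D4:**
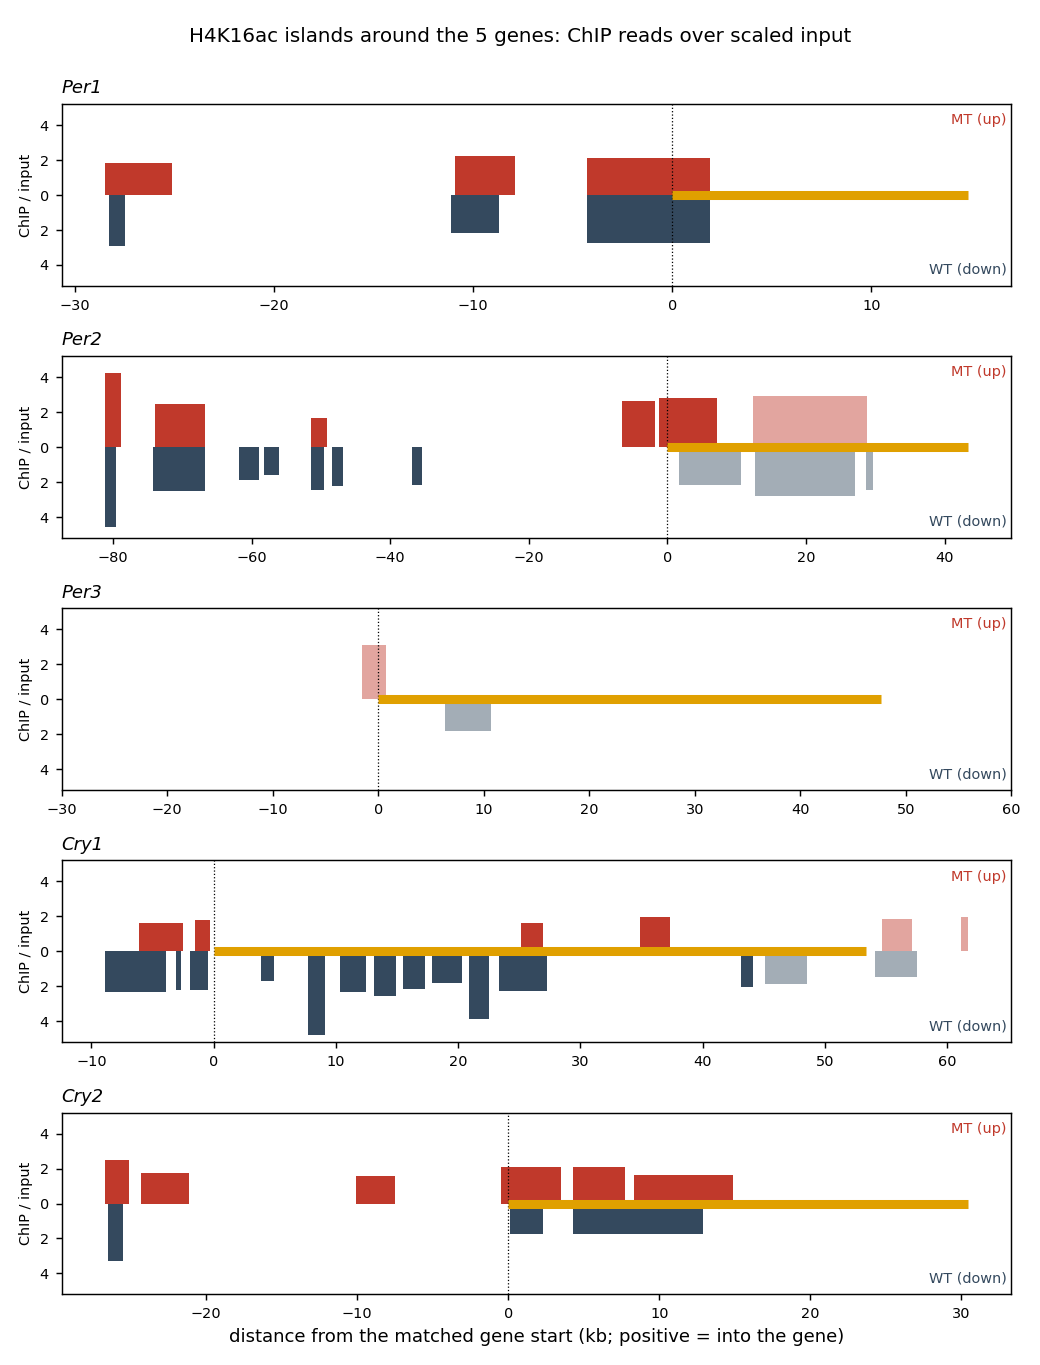
Islands around each of the 5 genes, drawn to length against the distance in kb from the matched start, with bar height giving ChIP over scaled input, MT upwards in red and WT downwards in dark blue. The yellow line is the gene, and pale bars lie outside the window of the gene. The plot shows the equal ends at the Per1 start, the MT islands over and before the Per2 start, the lone island of each list at Per3, the row of WT islands in Cry1 and the more numerous MT islands in Cry2.

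For the shared region at or beside each matched start, the log2 change of scaled ChIP reads per covered kb was 0.41 at Per2, 0.24 at Per1, 0.16 at Cry2 and -0.16 at Cry1. In the Per2 region only the MT island covered the start, and the WT island ended 1.6 kb inside the gene. The Per2 value thus compares partly different stretches. At the Per3 start, too, only MT had an island, with no shared region. The intervals of Per2 and Per1 overlap, as do those of Per1, Cry2 and Cry1, so the order of neighbours lies within counting error. Only that of Per2 left out 0. The sign of some of these values rests on the scaling: with ChIP reads set to equal totals over all islands, every log2 change moves by -0.30, and the values become 0.11 at Per2 (-0.092 to 0.31), -0.064 at Per1, -0.14 at Cry2 and -0.46 at Cry1, with each interval including 0. With equal totals over shared regions the move is -0.20. The order of the genes is the same under every such scaling, since all values move together. Division by input moves each gene by its own amount, and at the Per1 start ChIP over scaled input was 2.14 in MT and 2.73 in WT.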

How the data were processed

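H4K16ac ChIP and input libraries from liver of 1 MT and 1 WT mouse (4 libraries) were analysed as 1 list of islands per genotype. Per the submitters' processing notes, which give no role or order, Bowtie 0.12.7, SICER 1.03 and mm8 were used. The deposited counts are the authors' whole ChIP and input reads per island with duplicates removed, called in windows of 200 bp joined across gaps of at most 400 bp. The deposited fold, a ratio made by the authors, divides ChIP by scaled input reads (ChIP libraries were 1.06 times the input in MT and 1.10 times in WT). The authors' false discovery rate, adjusted from their p-value, was at most 0.001, and their p-value column was not used.

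Islands overlapping a window by 1 bp were members and were counted whole. Counts were summed per window or merged region and divided by covered length. Intervals are exact 95% intervals (Poisson for a count, Clopper-Pearson for a ratio). The count that would fail a list was taken from the largest Poisson tail probability among its islands. Analyses used Python 3.11.15, numpy 2.4.6, pandas 2.3.3 and scipy 1.17.1, and were tested on simulated data. The members and gene lists were chosen with earlier results of these data known. Named in each window were the island with the most ChIP reads of each list, the shared regions with the most reads and the largest change, and the 1-list island with the lowest false discovery rate; the other islands were chosen after their values were seen. Liver markers were not placed in the lists. Of the 2 pairs of mice that the study mentions, 1 was analysed here. Alternatives were a stricter false discovery rate (1e-05), a minimum fold of 2, and other edges, spans, overlaps and scalings.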

Additional observations from a re-analysis of the deposited data

How the results depend on the processing

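The cause of these changes was not tested, except where the alternative's construction is named. Of 174 values recomputed, 142 stayed near the value reported and 31 moved farther. Near means within its counting interval for levels and changes, and within 1.5 times for island counts and covered lengths. The remaining 1 was past 1.5-fold as reported and changed sign. Smaller changes that switched sign were counted as near or as moved. The Per1 window went from -0.038 to 0.14 with a fold of at least 2, and to 0.38 in reads per window. Scaled to equal totals over all islands, which treats the longer MT coverage as depth, the log2 change per window was -0.34 (Per1), -0.0081 (Per2), -0.54 (Cry1) and -0.15 (Cry2), and with equal totals over shared regions 0.091 (Per2) and -0.048 (Cry2), so the sign of Per2 and Cry2 depends on the scaling. Reads per window, summed over the islands of each list and not divided by length, gave 0.38 (Per1), 0.70 (Per2), -1.65 (Cry1) and 1.01 (Cry2). ChIP over scaled input gave -0.31 (Per1) and 0.15 (Per2). Islands in shared regions gave 0.025 for Per2, and islands wholly inside the window a covered length in MT of 0.883 times that of WT, since the island over the start crosses the edge. Matched gene spans, chosen after seeing the data, gave 0.17 for Per1, 3 MT and 3 WT islands at Per2, and 1 and 1 at Per3. With the false discovery rate held to 1e-05, Cry1 had 1 MT island and a covered length of 0.125 times WT. With a fold of at least 2, Cry1 had 0 MT islands, so no covered ratio or log2 was computed there, and Cry2 had 3 MT and 1 WT islands and a covered length of 9.0 times WT. Where an overlap had to span 50% of each island, 8 MT islands were in 1 list only, against 4. The region beside Tmem107 had 1.18 in reads per region. With 1 library per group no library could be left out.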
